A study of Mus musculus with 7 samples.

Results

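The urea cycle and the enzymes that break down amino acids were examined in the livers of 3 Trpm6-deficient and 4 control mice, by taking every probe set annotated to 1 of 52 listed genes alone and keeping the brightest probe set of each gene. This gave 47 measured genes of the 19938 genes with a probe set of their own on the array. Of the other 5, Ass1 and Ahcy share their probe sets with another gene and are not given a value, and Gls2, Sds and Sdsl were not analysed here. Liver RNA of male C57BL/6 littermates was measured on a whole-transcript array, each mouse on an array of its own. Controls had 1 floxed, undeleted Trpm6 allele. In the Trpm6-deficient mice (Trpm6 Δ17/Δ17;Sox2-Cre) both alleles lacked exon 17, with Sox2-Cre, which is active throughout the embryo proper, so that the loss was not limited to liver. Controls 1 and 2 were 12 weeks old and controls 3 and 4 were 13 weeks old. Trpm6-deficient 2 was 12 weeks old, and Trpm6-deficient 1 and 3 were 13 weeks old. The question for this gene group is whether its levels differ between the genotypes. TRPM6 is a channel kinase that carries Mg2+.

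Liver is the main site where amino acids are degraded. Their nitrogen is passed by transaminases to glutamate, released as ammonia and turned into urea by the urea cycle of periportal hepatocytes, while glutamine synthetase of pericentral hepatocytes catches the ammonia that escapes. The carbon skeletons of tyrosine, tryptophan, histidine and the branched-chain amino acids are opened by separate chains of enzymes, and methionine passes through the methionine cycle and transsulfuration to cysteine and taurine.

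All values are log2 expression values normalized by RMA, and a log2 change is the Trpm6-deficient minus the control mean, given ± its standard error from limma or with its 95% interval. Trpm6 itself lay at 5.50 to 5.53 in control and at 5.37 to 5.50 in Trpm6-deficient livers (adjusted p = 0.882 from limma). The array medians were higher, at 6.43 to 6.48, and whether this probe set reads the deleted exon was not examined. All 47 genes lay above the array median in every liver, and the 10 hepatocyte markers, averaged, were at 13.80 to 13.95 in control and 13.91 to 13.96 in Trpm6-deficient livers. Control 1 stood apart in markers of other liver cells. Its mean over 8 Kupffer cell markers was 8.34 against 9.07 to 9.27 in the other controls and 8.64 to 8.81 in Trpm6-deficient livers. Its mean over 8 sinusoidal endothelial markers was 8.91 against 9.59 to 9.89 and 9.15 to 9.53. In whole tissue, fewer cells of a type and less RNA per cell cannot be told apart.

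By limma, none of the 47 genes had an adjusted p up to 0.1, the threshold passed by 0.129% of all probe sets (0.0759% higher and 0.0534% lower). A gene is called nominally higher or lower here where its unadjusted p is at most 0.05, which is a description and no call. By this 13 genes were nominally higher and 1 was nominally lower in Trpm6-deficient livers, together 29.8% of the 47, against 6.87% of all probe sets (3.85% higher and 3.03% lower). The median log2 change was 0.11, against 0.00 over all probe sets, and 36 genes had a change above 0 and 11 below. These genes are bright, with a median level of 12.36. Of the 712 probe sets at or above that level, 15.3% were nominally higher and 4.49% nominally lower, 19.8% in all. The 712 include the brighter of the 47 genes, while the dimmer of the 47 lie below that level. Their share is thus not matched to the 47 in brightness. Whether the 47 genes differ from these probe sets was not tested. By pathway the nominally different share was 75% for histidine and 37.5% each for sulfur and for the genes around glutamate. It was 27.3% for aromatic, 14.3% for urea cycle and 0% for branched-chain genes. These pathway shares rest on few genes and were not tested against the shares above. The groups did not overlap for 12 genes, all higher in Trpm6-deficient livers, which is 25.5% of the 47. Over all probe sets this share was 5.33% (2.94% higher and 2.38% lower), and for probe sets as bright as these genes it was not computed. Without control 1 the nominal counts were 14 higher and 0 lower, and with the methods' t-test they were 11 and 0, again with no gene passing after adjustment.

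**Figure D1:**
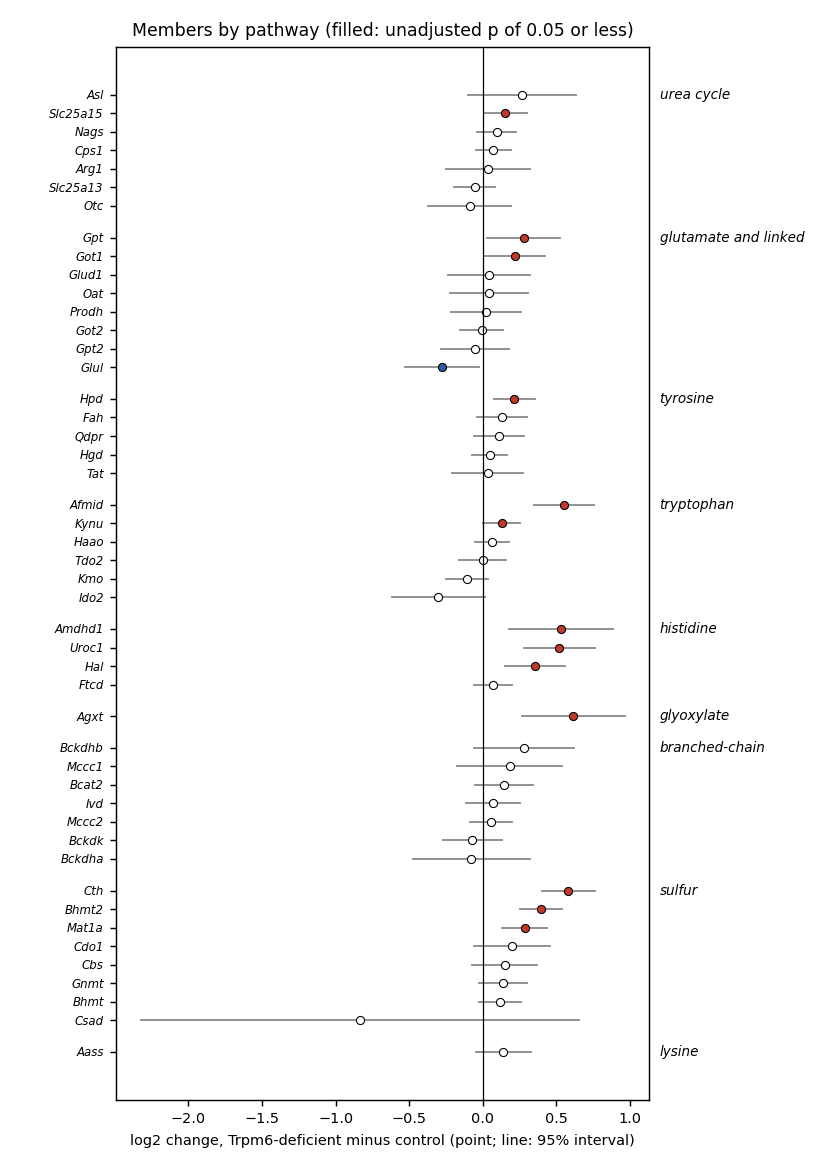
Log2 change (x axis, Trpm6-deficient minus control, limma) of the 47 measured genes, grouped by pathway, with the 95% interval as a line and points filled for the 13 nominally higher genes and the 1 nominally lower. The histidine and sulfur groups hold 3 filled points each, all higher, the glutamate group holds 3, of which 1 is lower, and the widest interval is that of Csad.

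Among the pathways with over 1 measured gene, histidine breakdown had the largest median log2 change, 0.44, and 3 of its 4 genes were nominally higher. Hal encodes histidine ammonia-lyase, which removes the amino group of histidine as the first step. Its values were 12.37, 12.52, 12.56 and 12.55 in controls 1 to 4 and 12.70, 12.87 and 12.99 in Trpm6-deficient 1 to 3. Every Trpm6-deficient liver was above every control, and the log2 change was 0.35 ± 0.09 (adjusted p = 0.429 from limma). Uroc1, the urocanase gene of the second step, was at 11.14, 10.92, 10.94 and 11.11 in control and 11.56, 11.37 and 11.71 in Trpm6-deficient livers. The groups were again apart, with a log2 change of 0.52 ± 0.10 (adjusted p = 0.294). Amdhd1 encodes imidazolonepropionase, the third enzyme, and its controls spread from 10.72 in control 3 to 11.31 in control 4, with controls 1 and 2 at 11.18 and 10.94. The Trpm6-deficient livers lay above all of them, at 11.47, 11.56 and 11.67, and the log2 change was 0.53 ± 0.15 (adjusted p = 0.540). Ftcd, which encodes the formiminotransferase of the last step, overlapped between the groups, with a log2 change of 0.07 (95% interval -0.06 to 0.20). Over the 4 genes the mean difference from the control mean was -0.08 to 0.11 in control and 0.31 to 0.49 in Trpm6-deficient livers. Hal and Amdhd1 are neighbouring genes on the RefSeq assembly GRCm38.p6, and Uroc1 lies on another chromosome.

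The 250 bases before the RefSeq start (GRCm38.p6) of the 3 histidine genes that stood apart are shown because these genes encode successive steps. Capitals mark matches on either strand to the motifs named after them. Hal lies on the plus strand at chr10:93488518-93488767, Amdhd1 on the minus strand at chr10:93540034-93540283 and Uroc1 on the plus strand at chr6:90333039-90333288.
Hal: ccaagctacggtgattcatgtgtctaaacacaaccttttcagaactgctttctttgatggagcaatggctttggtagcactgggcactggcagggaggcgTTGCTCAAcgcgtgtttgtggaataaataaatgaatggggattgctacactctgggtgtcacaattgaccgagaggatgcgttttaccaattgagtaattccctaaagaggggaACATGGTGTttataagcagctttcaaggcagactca
Amdhd1: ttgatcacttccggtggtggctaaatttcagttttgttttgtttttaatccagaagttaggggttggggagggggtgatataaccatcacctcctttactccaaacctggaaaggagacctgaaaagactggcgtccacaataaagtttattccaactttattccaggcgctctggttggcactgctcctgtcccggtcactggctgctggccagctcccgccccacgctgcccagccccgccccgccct
Uroc1: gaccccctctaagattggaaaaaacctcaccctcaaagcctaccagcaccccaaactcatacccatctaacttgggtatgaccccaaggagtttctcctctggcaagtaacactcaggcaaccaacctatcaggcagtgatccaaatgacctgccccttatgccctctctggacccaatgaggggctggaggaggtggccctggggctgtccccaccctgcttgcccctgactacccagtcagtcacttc
In Hal the capitals are 1 match to the C/EBP letters TTGCNNAA and 1 to the glucocorticoid receptor letters ACANNNTGT, which do not overlap. Of 32851 promoter windows of this length, 9.56% hold the first and 5.84% the second. Among the 42 windows of the 38 genes found in the table, 4 hold the first (9.52%) and 6 the second (14.3%). The cAMP response half-site TGACG was in 4 of the 42 (9.52%, against 17.8% of all windows), the STAT5 letters TTCNNNGAA in 2 (4.76% against 7.02%) and the ATF4 letters TGATGNAA in 1 (2.38% against 3.45%). The HNF4 letters CAAAGTCCA and the HNF1 motif were in none, against 0.384% and 0.00913% of all windows. A match is a description of the letters and not a binding site.

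In sulfur amino acid metabolism 3 of 8 measured genes were nominally higher, none was nominally lower, and the median log2 change was 0.17. Cth encodes cystathionine gamma-lyase, which releases cysteine from cystathionine and can also form hydrogen sulfide. It lay at 12.75, 12.48, 12.59 and 12.59 in control and at 13.21, 13.24 and 13.10 in Trpm6-deficient livers. The groups were 0.35 apart at their nearest values, and the log2 change of 0.58 ± 0.08 (adjusted p = 0.119 from limma) had the smallest p of all 47 genes. Over the probe sets with a mean of 5 or more alone its adjusted p was 0.0809. Mat1a, the methionine adenosyltransferase gene of hepatocytes that opens the methionine cycle, was at 13.66, 13.61, 13.78 and 13.55 in control and 13.94, 13.94 and 13.92 in Trpm6-deficient livers. These 3 livers lay within 0.02 of each other and above every control (log2 change 0.28 ± 0.06, adjusted p = 0.385). Bhmt2, which encodes a methyltransferase that uses S-methylmethionine to remake methionine from homocysteine, was at 12.16, 12.25, 12.11 and 12.05 in control and 12.55, 12.56 and 12.50 in Trpm6-deficient livers. It too did not overlap, with a log2 change of 0.39 ± 0.06 (adjusted p = 0.169). Its paralog Bhmt, which uses betaine for the same reaction, has 3 probe sets. The brightest had a log2 change of 0.12 (95% interval -0.02 to 0.26), with groups just apart at 13.74 to 13.90 and 13.91 to 13.98. The next, with a mean of 13.85, was just apart too (log2 change 0.11). Its values were close to those of the brightest in every liver, and whether they are separate readings of Bhmt was not examined. The dimmest, with a mean of 9.04, overlapped at 8.82 to 9.14 and 9.06 to 9.20 (log2 change 0.13). The RefSeq assembly places Bhmt, Bhmt2 and Dmgdh, the dimethylglycine dehydrogenase gene that acts on the product of Bhmt, side by side, and Dmgdh had a log2 change of 0.30 ± 0.10 (adjusted p = 0.649).

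Cbs, the first enzyme of transsulfuration, was at 12.74, 12.65, 12.43 and 12.79 in control and 12.83, 12.76 and 12.81 in Trpm6-deficient livers. The groups overlapped, with a log2 change of 0.15 (95% interval -0.07 to 0.37). Gnmt, which uses up methyl groups by methylating glycine, and Cdo1, which oxidizes cysteine, had log2 changes of 0.14 (95% interval -0.02 to 0.30) and 0.20 (95% interval -0.06 to 0.46). Csad encodes the decarboxylase that leads from cysteine sulfinate to taurine, and it varied most of all 47 genes within both groups. Its values were 12.19, 11.60, 10.89 and 11.12 in control and 11.82, 10.73 and 9.29 in Trpm6-deficient livers. Trpm6-deficient 1 lay inside the control range and the other 2 below it, and the log2 change of -0.84 had a 95% interval of -2.32 to 0.65 (adjusted p = 0.856). Without Trpm6-deficient 3 it was -0.18, and without Trpm6-deficient 1 it was -1.44, so single livers set its size.

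**Figure D2:**
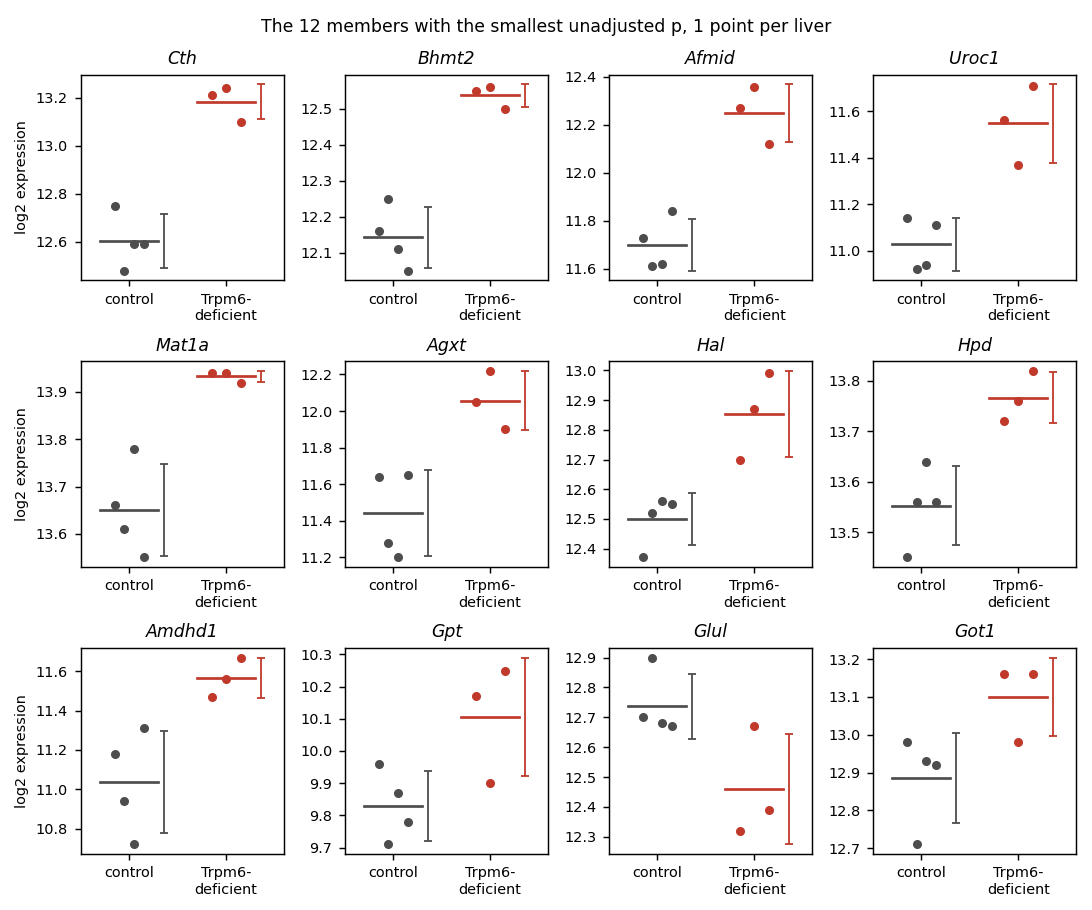
Log2 expression (y axes, each panel on its own scale) of the 12 genes with the smallest unadjusted p, with a point for each of the 4 control and 3 Trpm6-deficient livers, where lines give the group mean and bars its SD. The groups are apart in the first 9 panels, from Cth to Amdhd1, and overlap for Gpt and Got1, while for Glul 1 Trpm6-deficient liver reaches the lowest control.

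Agxt encodes alanine-glyoxylate aminotransferase, which clears glyoxylate by turning it into glycine, and it was the only measured gene of the serine and glyoxylate group. It lay at 11.64, 11.28, 11.20 and 11.65 in control and at 12.05, 12.22 and 11.90 in Trpm6-deficient livers. All Trpm6-deficient livers were above all controls, and the log2 change of 0.61 ± 0.15 (adjusted p = 0.425 from limma) was the largest positive change among the 47 genes.

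Of 11 measured genes of aromatic amino acid breakdown, 3 were nominally higher and none nominally lower, with a median log2 change of 0.06. In the tryptophan pathway Afmid, the formamidase gene that makes kynurenine from its formyl precursor, was at 11.73, 11.61, 11.62 and 11.84 in control and 12.27, 12.36 and 12.12 in Trpm6-deficient livers. The groups did not overlap, and the log2 change was 0.55 ± 0.08 (adjusted p = 0.180). The gene of the step before it overlapped between the groups. Tdo2, the dioxygenase gene that commits tryptophan to this pathway in liver, was at 13.33, 13.26, 13.30 and 13.30 in control and 13.42, 13.30 and 13.17 in Trpm6-deficient livers. The Trpm6-deficient values lay on both sides of the controls, and the 95% interval of the log2 change ran from -0.16 to 0.16. The kynureninase gene Kynu, named after its values were seen, had a log2 change of 0.13 ± 0.05 (adjusted p = 0.723) without overlap, and was nominally higher in 1 of the 7 fits that leave out 1 liver. Ido2, a second dioxygenase gene, and Kmo, the kynurenine hydroxylase gene, had log2 changes of -0.30 (95% interval -0.62 to 0.01) and -0.11 (95% interval -0.25 to 0.03). Haao, which acts after them, had one of 0.06.

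In tyrosine breakdown Hpd, the hydroxyphenylpyruvate dioxygenase gene, was at 13.45, 13.56, 13.64 and 13.56 in control and 13.72, 13.76 and 13.82 in Trpm6-deficient livers. The groups were apart by 0.08 at their nearest values (log2 change 0.21 ± 0.06, adjusted p = 0.533 from limma). Tat, the aminotransferase gene that starts the pathway and that glucocorticoids and glucagon induce, was at 14.15, 13.81, 13.93 and 13.91 in control and 14.10, 13.84 and 14.01 in Trpm6-deficient livers. All Trpm6-deficient values lay within the control range, with a log2 change of 0.03 (95% interval -0.21 to 0.27). The later genes Hgd and Fah and the pterin reductase gene Qdpr had log2 changes of 0.05, 0.13 and 0.11, each with overlapping groups.

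The urea cycle itself had 1 of 7 measured genes nominally higher and none nominally lower, with log2 changes from -0.09 to 0.27 and a median of 0.07. Cps1, which makes carbamoyl phosphate and sets the entry of ammonia, lay at 13.91, 13.83, 13.83 and 13.83 in control and at 13.90, 13.87 and 13.99 in Trpm6-deficient livers. The ranges overlapped through control 1, and the log2 change was 0.07 (95% interval -0.05 to 0.19, adjusted p = 0.852 from limma). Asl, the argininosuccinate lyase gene, was at 12.11, 12.15, 12.64 and 12.09 in control and 12.61, 12.37 and 12.56 in Trpm6-deficient livers. Control 3 was as high as the Trpm6-deficient livers, and the log2 change was 0.27 ± 0.15 (adjusted p = 0.830), or 0.40 without that control. The nominally higher gene was Slc25a15, the mitochondrial ornithine carrier gene, which was named after its values were seen. Its log2 change was 0.15 ± 0.06 (adjusted p = 0.712), with groups apart at 11.78 to 11.97 and 12.03 to 12.09, and it was nominally higher in 1 of the 7 fits that leave out 1 liver. Nags, which makes the activator of the Cps1 enzyme, had a log2 change of 0.09. Otc and Arg1, the cycle enzymes that make citrulline and release urea, had log2 changes of -0.09 (95% interval -0.37 to 0.19) and 0.03 (95% interval -0.25 to 0.32). Slc25a13, the aspartate and glutamate carrier gene, had one of -0.06.

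**Figure D3:**
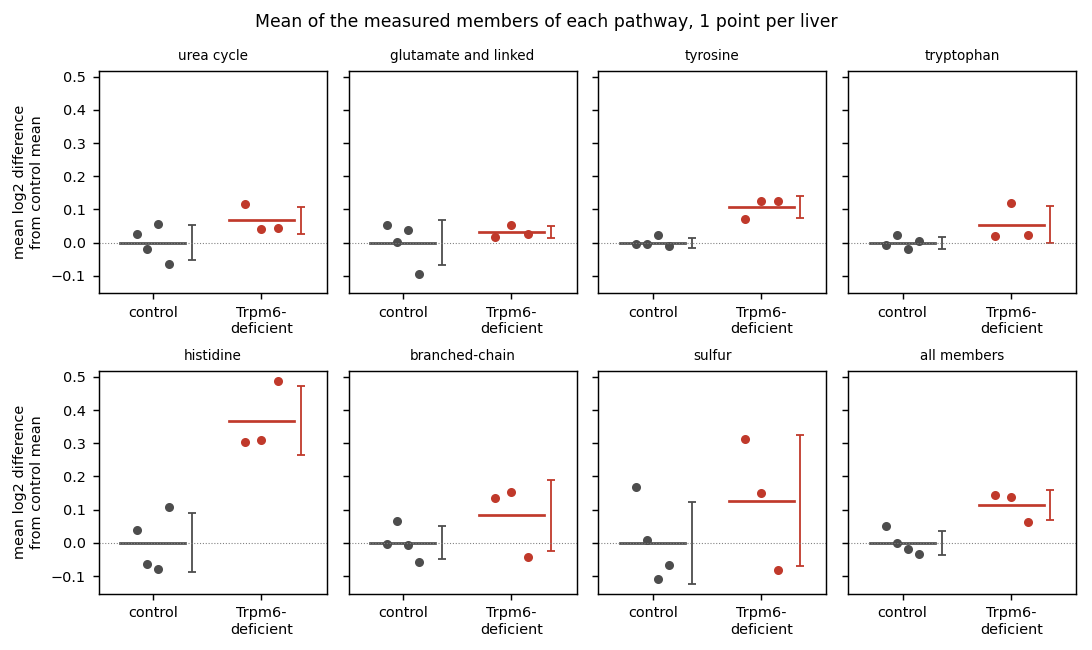
Mean log2 difference from the control mean (y axis) over the measured genes of 7 pathways and over all 47, with a point for each of the 4 control and 3 Trpm6-deficient livers, where lines give the group mean and bars its SD. The histidine genes lie at 0.31 to 0.49 in Trpm6-deficient livers and at -0.08 to 0.11 in control. The sulfur genes spread from -0.08 to 0.31 among Trpm6-deficient livers, and Trpm6-deficient 3 is the low point. In that liver Csad, 1 of the 8 sulfur genes, was at 9.29 against a control mean of 11.45. The sulfur mean without Csad is not shown.

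Among 8 measured genes around glutamate, 2 transaminase genes were nominally higher and 1 gene, Glul, was nominally lower. Gpt, the cytosolic alanine aminotransferase gene, was at 9.96, 9.71, 9.87 and 9.78 in control and 10.17, 9.90 and 10.25 in Trpm6-deficient livers, with Trpm6-deficient 2 below control 1. Its log2 change was 0.28 ± 0.10 (adjusted p = 0.684 from limma). Got1, the cytosolic aspartate aminotransferase gene, was at 12.98, 12.71, 12.93 and 12.92 in control and 13.16, 12.98 and 13.16 in Trpm6-deficient livers, where Trpm6-deficient 2 equalled control 1. Its log2 change was 0.22 ± 0.08 (adjusted p = 0.699). The mitochondrial forms Gpt2 and Got2 had log2 changes of -0.05 (95% interval -0.28 to 0.18) and -0.01 (95% interval -0.16 to 0.14). Whether the cytosolic and mitochondrial forms differ from each other was not tested. Of the 7 fits that leave out 1 liver, 2 left Gpt and 2 left Got1 nominally higher.

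Glul, the glutamine synthetase gene, was the 1 nominally lower gene of the 47. Its brightest probe set was at 12.70, 12.90, 12.68 and 12.67 in control and 12.32, 12.67 and 12.39 in Trpm6-deficient livers. Trpm6-deficient 2 equalled control 4, the other 2 lay below all controls, and the log2 change was -0.28 ± 0.10 (adjusted p = 0.685). This probe set was nominally lower in 2 of the 7 fits that leave out 1 liver. A second probe set of Glul had a mean of 12.50. It was at 12.64 to 12.65 in control and 12.20 to 12.38 in Trpm6-deficient livers, without overlap. Its log2 change was -0.34 ± 0.05 (unadjusted p = 0.00058 and adjusted p = 0.192 from limma). The fits that leave out 1 liver were not read for this second probe set. Glud1, the glutamate dehydrogenase gene, Oat, the ornithine aminotransferase gene, and Prodh, the proline dehydrogenase gene, had log2 changes of 0.04, 0.04 and 0.02.

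Branched-chain and lysine breakdown held no nominally different gene. The 7 branched-chain genes had log2 changes from -0.08 to 0.28 with a median of 0.07, and all overlapped between the groups. Bckdha, a subunit gene of the ketoacid dehydrogenase that commits these amino acids to oxidation, was at 11.01, 10.85, 10.85 and 10.79 in control and 11.12, 10.86 and 10.41 in Trpm6-deficient livers. Trpm6-deficient 1 and 3 lay above and below all controls, and the 95% interval of the log2 change was -0.47 to 0.32. The other subunit gene, Bckdhb, had a log2 change of 0.28 (95% interval -0.06 to 0.62), and Bckdk, whose kinase switches the complex off, one of -0.07. Bcat2, a branched-chain aminotransferase gene, and the leucine pathway genes Ivd, Mccc1 and Mccc2 had log2 changes of 0.14, 0.07, 0.18 and 0.06. Aass, which opens the main route of lysine breakdown, was at 12.36, 12.11, 12.16 and 12.12 in control and 12.25, 12.33 and 12.40 in Trpm6-deficient livers. Control 1 lay within the Trpm6-deficient range, and the log2 change was 0.14 (95% interval -0.05 to 0.33).

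Further enzymes of amino acid breakdown were read from a separate list. Of 53 measured, none passed after adjustment, and 17 were nominally higher and 2 nominally lower (35.8% against 6.87% of all probe sets). The share over probe sets as bright as this list was not computed, and its median log2 change was 0.09. Ethe1, a mitochondrial persulfide dioxygenase gene that acts in sulfide disposal, was at 10.16, 10.02, 9.55 and 10.52 in control and 10.90, 11.07 and 11.44 in Trpm6-deficient livers. The groups were apart, with a log2 change of 1.07 ± 0.24 (adjusted p = 0.389). Fmo1, a flavin monooxygenase gene that can act on hypotaurine, and Dhtkd1, a 2-oxoadipate dehydrogenase gene of lysine and tryptophan breakdown, had log2 changes of 0.57 ± 0.12 (adjusted p = 0.343) and 0.50 ± 0.12 (adjusted p = 0.429). Crym, which encodes a ketimine reductase, and Aldh4a1, an enzyme gene of proline breakdown, had log2 changes of 0.36 (adjusted p = 0.388) and 0.28 (adjusted p = 0.564). Aadat, an aminotransferase gene of kynurenine and aminoadipate, went the other way, at 11.43, 11.78, 11.39 and 11.27 in control and 10.75, 11.12 and 10.78 in Trpm6-deficient livers. Every Trpm6-deficient liver was below every control (log2 change -0.58 ± 0.15, adjusted p = 0.463).

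Of 18 transporters of amino acids, ammonia and urea, none passed after adjustment, 2 were nominally higher and none was nominally lower (11.1% against 6.87% of all probe sets). Of 12 regulators of amino acid catabolism none passed after adjustment, 1 was nominally higher and 2 were nominally lower (25% against 6.87%). Creb3l3, the gene of the liver transcription factor CREBH, was at 10.79, 10.79, 10.80 and 10.79 in control and 10.41, 10.31 and 9.99 in Trpm6-deficient livers. All 3 lay below the nearly equal controls (log2 change -0.56 ± 0.10, adjusted p = 0.261 from limma). Ppargc1a, a coactivator gene of the fasting response, was at 8.91, 9.18, 8.49 and 8.81 in control and 9.84, 9.25 and 10.28 in Trpm6-deficient livers. These values are of the brighter of its 2 probe sets, and the other was not read. The groups were apart, though Trpm6-deficient 2 was within 0.07 of control 2 (log2 change 0.94 ± 0.27, adjusted p = 0.562). The other nominally lower regulator was Cebpa, named after its values were seen, with a log2 change of -0.42 ± 0.13 (adjusted p = 0.603).

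Since the urea cycle and histidine breakdown are periportal and glutamine synthesis is pericentral, lists of markers of both zones were read beside them. For the counts below, 3.85% of all probe sets were nominally higher and 3.03% nominally lower. Of 10 periportal markers, 3 were nominally higher and none nominally lower. They were Hal itself, Aldh1b1 and Ctsc, with log2 changes of 0.35, 0.65 and 0.55. Cyp2f2 went the other way without overlap, at 13.90 to 13.98 in control and 13.71 to 13.89 in Trpm6-deficient livers (log2 change -0.13 ± 0.06, adjusted p = 0.759 from limma), and Pck1 had a log2 change of -0.17 with overlapping groups. The other 5 markers, Cps1 and Arg1 among them, had log2 changes from 0.03 to 0.17 and overlapped. The mean difference from the control mean over this list was -0.04 to 0.06 in control and 0.14 to 0.21 in Trpm6-deficient livers. Of 12 pericentral markers, Glul and Oat among them, 2 were nominally higher and 2 nominally lower. The higher ones were Lect2 and Lgr5, with log2 changes of 0.55 (adjusted p = 0.126 from limma) and 0.39. Lect2 did not overlap, at 11.13 to 11.38 in control and 11.77 to 11.88 in Trpm6-deficient livers. Glul and Gulo were the lower ones, with log2 changes of -0.28 and -0.14. Over the pericentral list the mean difference was -0.09 to 0.09 in control and -0.08 to 0.06 in Trpm6-deficient livers. The Kupffer cell list had a log2 change below 0 for 7 of 8 markers and the sinusoidal endothelial list for 8 of 8, none of them nominally lower, with medians of -0.29 and -0.21. Of 10 hepatocyte markers 1 was nominally higher, and their median was 0.04. Of 8 stellate cell markers 3 were nominally higher, of 5 cholangiocyte markers 1, and of 5 lymphocyte markers none, with medians of 0.07, 0.16 and -0.02. Of 2 measured erythroid markers, Alas2, a heme synthesis gene of red cell precursors, was nominally lower (log2 change -1.66, adjusted p = 0.192). The part of these lists in the differences above was not tested.

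**Figure D4:**
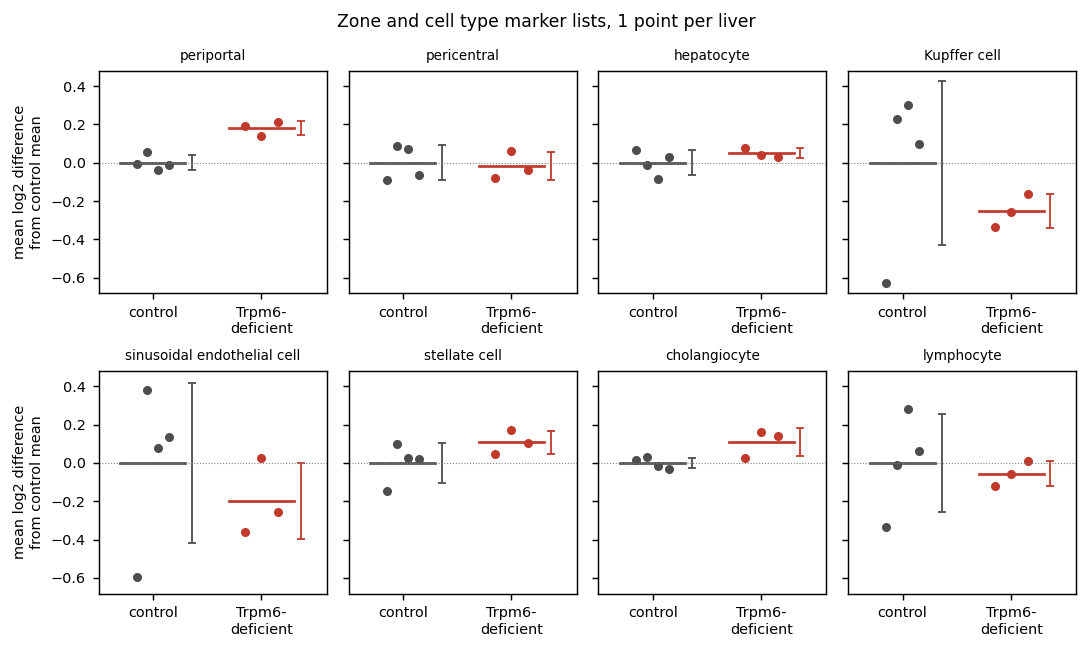
Mean log2 difference from the control mean (y axis) over lists of zone and cell type markers, with a point for each of the 4 control and 3 Trpm6-deficient livers, where lines give the group mean and bars its SD. Control 1 is the low point of the Kupffer cell (-0.63) and sinusoidal endothelial (-0.60) panels, and the periportal list lies at 0.14 to 0.21 in Trpm6-deficient livers.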

How the data were processed

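Total RNA of the left liver lobe of 4 control and 3 Trpm6-deficient mice was hybridised to Affymetrix Mouse Gene ST arrays. The authors ran RMA in Expression Console 1.4.0, per the submitters' processing notes, and deposited log2 values for 35556 probe sets. Symbols are those of the platform's annotation, 1 each for 21789 probe sets and several for 1621. The values were fitted as deposited with limma 3.58.1 in R 4.3.3, without a covariate, and p-values were adjusted by the Benjamini-Hochberg method over all probe sets. The fit was tested on simulated data. Members and lists were chosen with earlier results of these data known. Values by liver are given for genes with an adjusted p of 0.1 or less and the 12 with the smallest unadjusted p. They are also given for a fixed set of entry or rate-setting enzymes and the 3 genes with the largest control range. That set was Cps1, Glul, Tat, Tdo2, Hal, Agxt, Bckdha, Mat1a, Cbs and Aass, besides Gls2 and Sds, which were not analysed here. From the related lists the 8 genes with the smallest unadjusted p are named, and Dmgdh and Cebpa are named outside this rule. Alternatives left out each mouse, added age or the replicate number, used the 13-week-old mice, renormalized, centred or filtered the values, changed the variance model, the test or the probe set per gene. The number of arrays limits the precision. That each array is a separate mouse comes from the methods.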

Additional observations from a re-analysis of the deposited data

Results flagged for a closer look

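In 8 of the 47 genes 1 control liver lay far from the other 3, by the gap to its nearest neighbour over the range of the 4. Chance flags about 1 in 20 groups by this rule. The share it flags over all probe sets was not computed, so whether 8 is many for this array is not known. Control 1 was the high value for Cps1 (13.91) and the low value for Fah (13.15) and Bcat2 (8.33). Control 2 was the high value for Glul (12.90) and Bckdk (8.85) and the low value for Ftcd (11.44). Control 3 was the high value for Asl (12.64), and control 4 the low value for Slc25a15 (11.78).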

How the results depend on the processing

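Under no alternative did a gene pass after adjustment but the filter to a mean log2 value of 5 or more, where 1 did (Cth, adjusted p = 0.0809). The nominally higher count (unadjusted p up to 0.05), 13 as reported, was 9 to 14 when 1 mouse was left out and 8 with the 13-week-old mice only. The nominally lower count, 1 as reported, was 0 to 2 when 1 mouse was left out, 2 with arrays centred on their medians, 0 with the methods' t-test and 3 with the replicate number as a block. With that block 12 genes were higher and 1 probe set of the whole array passed after adjustment, against 46 without it. Same-numbered control and Trpm6-deficient livers had deviations that correlated at 0.33, 0.26 and 0.09, the last under the 0.1 asked of every pair, so the numbers were not taken to pair the mice. Trpm6-deficient 1 and 2 each correlated best with the control of the same number, and Trpm6-deficient 3 correlated best with control 4 (0.23). The median log2 change ran from 0.08 with quantile normalization to 0.13 with the 13-week-old mice only. The 14 nominally different genes kept the sign of their change under all 16 alternative fits, 9 of them kept that p whichever mouse was left out, and 4 (Cth, Bhmt2, Afmid and Uroc1) kept it under all 16. Of 320 values of the 20 genes given by liver, 319 stayed above the adjusted threshold and 1 (Cth) passed it.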
